A study of Rattus norvegicus with 6 samples.

Results

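The genes described are the 3 chains of complement component C1q (C1qa, C1qb and C1qc) and complement component C3. They were chosen by Ensembl rat gene ID, and all 4 were present among the 22526 genes of the deposited table. The IDs are ENSRNOG00000012807 for C1qa, ENSRNOG00000012749 for C1qb, ENSRNOG00000012804 for C1qc and ENSRNOG00000046834 for C3. The table holds no gene names, and the pairing of these IDs with their names came with the choice of genes and could not be checked against it.

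Complement is a cascade of plasma and tissue proteins that tags debris, microbes and, in the nervous system, synapses and myelin for removal. The 3 C1q chains form a single protein with collagen-like stalks and globular heads, which recognises its target and starts the classical pathway. C3 is the protein on which the pathways of complement activation converge: its cleavage coats a surface with C3b and releases the peptide C3a. In the central nervous system C1q is made chiefly by microglia and macrophages, while C3 is made by reactive astrocytes and by myeloid and stromal cells, besides the liver.

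Spinal cord RNA had been sequenced from 6 adult female Sprague-Dawley rats at 2 weeks after spinal cord injury. In 3 rats the implant was an optic nerve scaffold stripped of its cells (DON), and in the other 3 the same kind of scaffold carried Apt19S, a nucleic acid aptamer (A-DON). Every rat was injured and implanted, so DON is the only reference and no uninjured level is known. No label used here gives the species of the donor nerve, the spinal level of the injury or the extent of cord taken. Libraries held 24961512 to 31189687 reads assigned to genes. A-DON replicate 2 stood apart from the other A-DON libraries in each of the 4 genes, and the comparison is given with and without it. The cell types in the tissue were not analysed here, because the 15 lists of complement and cell type genes drawn up for this purpose could not be matched to IDs. In whole tissue, fewer cells of a type and less RNA per cell cannot be told apart.

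C1qb, C1qc and C1qa follow one another on rat chromosome 5 with no other annotated gene between them, and C3 lies on chromosome 9 (RefSeq annotation of build GRCr8). Promoter sequences of 3 of the 4 genes, C1qa, C1qb and C3, were found in the RefSeq promoter table of that build. They are shown because the 4 genes moved in the same direction between the groups. Each line gives the 250 bases before the annotated start, 5′ to 3′ on the gene's own strand, with motif matches in capitals. The windows are chr5:154419934-154420183 for C1qa, chr5:154407828-154408077 for C1qb and chr9:2201340-2201589 for C3, all on the minus strand.
C1qa promoter: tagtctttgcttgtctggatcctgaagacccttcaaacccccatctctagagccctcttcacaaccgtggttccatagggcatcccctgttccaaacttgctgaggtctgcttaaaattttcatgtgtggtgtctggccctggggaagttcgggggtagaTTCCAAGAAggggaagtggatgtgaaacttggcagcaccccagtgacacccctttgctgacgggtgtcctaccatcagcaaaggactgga
C1qb promoter: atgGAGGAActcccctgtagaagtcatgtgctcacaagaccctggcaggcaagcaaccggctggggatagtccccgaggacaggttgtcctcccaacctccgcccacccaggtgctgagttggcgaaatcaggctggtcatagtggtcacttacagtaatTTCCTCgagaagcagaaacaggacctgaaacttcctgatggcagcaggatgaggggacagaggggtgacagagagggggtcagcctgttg
C3 promoter: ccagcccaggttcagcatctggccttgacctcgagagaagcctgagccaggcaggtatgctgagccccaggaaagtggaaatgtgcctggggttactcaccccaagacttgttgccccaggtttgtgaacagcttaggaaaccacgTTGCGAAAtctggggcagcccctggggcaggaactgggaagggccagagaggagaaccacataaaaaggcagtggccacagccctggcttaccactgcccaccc

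The motifs searched, on both strands, were GAGGAA (PU.1, a transcription factor of myeloid cells), TTCNNNGAA (STAT), and longer motifs for NF-kB and IRF. For C/EBP, TTGCNNNAA, which is an uncommon spacing, and TTGCNNAA were searched, also on both strands. C1qb held 2 matches to the PU.1 motif, from 247 to 242 and, on the opposite strand, from 90 to 85 bases before the start. The same motif occurs in 23.3% of all 33469 promoter windows. C1qa held a match to the STAT motif from 90 to 82 bases before the start, as do 7.67% of all windows. C3 held a match to TTGCNNAA from 104 to 97 bases before the start, a spacing that was added after the promoters had been seen and that 9.22% of all windows hold. TTGCNNNAA, the NF-kB motif and the IRF motif, present in 8.17%, 0.314% and 3.41% of windows, had no match in these 3. None of the motifs was found in more than 1 of the 3 windows, and no matches overlapped. A match describes letters in the window and is not a binding site.

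The first question was whether the genes that start and carry the classical pathway differed between cords with and without the aptamer on the scaffold. All 4 were lower in A-DON. Expressed as the ratio of mean normalized counts (reads divided by a size factor of the library), DON exceeded A-DON 5.15-fold for C1qa, 4.39-fold for C1qb, 4.78-fold for C1qc and 5.48-fold for C3. The 4 genes together took 0.269% to 0.385% of the reads of a DON library and 0.0250% to 0.134% of the reads of an A-DON library.

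C1qa, the A chain of C1q, had 21276, 17389 and 13033 normalized counts in DON replicates 1, 2 and 3. In A-DON replicates 1, 2 and 3 it had 2072, 6536 and 1425. The groups did not overlap, and the lowest DON library stood 1.99-fold above A-DON replicate 2, the highest of its group. The mean was 17233 ± 4124 normalized counts in DON against 3344 ± 2783 in A-DON (SD, n = 3 each). On the scale of log2(normalized count + 1) the fold change, A-DON minus DON, came to -2.65, with a standard error of 0.57 and a 95% interval of -4.05 to -1.26. It passed the threshold, with a limma p of 0.0215 after Benjamini-Hochberg adjustment over all 19515 tested genes.

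C1qb, the B chain, had 12176, 9789.7 and 9337 normalized counts in DON replicates 1, 2 and 3. In the A-DON replicates it had 1628, 4258 and 1239, again with replicate 2 the highest and every A-DON library below every DON library. Within DON this gene varied least of the 4, with a log2 SD of 0.20. Its log2 fold change was the smallest of the 4 in size, at -2.34 with a standard error of 0.46 (95% interval -3.46 to -1.22; limma adjusted p = 0.0179).

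C1qc, the C chain, had 11963, 8155 and 7728 normalized counts in DON replicates 1, 2 and 3. The A-DON replicates had 1112, 3799.7 and 918.5. The groups did not overlap, and the order of the rats was that of C1qb and C1qa: replicate 1 was highest in DON, and replicate 2 was highest and replicate 3 lowest in A-DON. C1qc fell by 2.53 on the log2 scale, with a standard error of 0.55 (95% interval of the log2 fold change -3.88 to -1.18; limma adjusted p = 0.0222).

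C3, the central component, had 34430.0, 76473 and 65747 normalized counts in DON replicates 1, 2 and 3. In the A-DON replicates it had 7399, 21439 and 3414. The groups did not overlap, but the gap was the narrowest of the 4, with the lowest DON library 1.61-fold above the highest A-DON library. The mean was 58883 ± 21846 normalized counts in DON against 10751 ± 9468 in A-DON (SD, n = 3 each). C3 fell by 2.77 on the log2 scale, with a standard error of 0.70 (95% interval of the log2 fold change -4.47 to -1.08; limma adjusted p = 0.0299). This was the largest change of the 4 in that fit, but the rank was not stable. C1qa changed more under quantile normalization (-2.64 against -2.60 for C3). It also did so without DON replicate 2, DON replicate 3 or A-DON replicate 3. As a share of all reads C3 reached 0.264% in DON replicate 2 (Wilson 95% interval 0.262% to 0.265%) and was lowest, at 0.0122% (0.0118% to 0.0126%), in A-DON replicate 3. These intervals cover counting error only and are narrow beside the spread between rats.

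**Figure D1:**
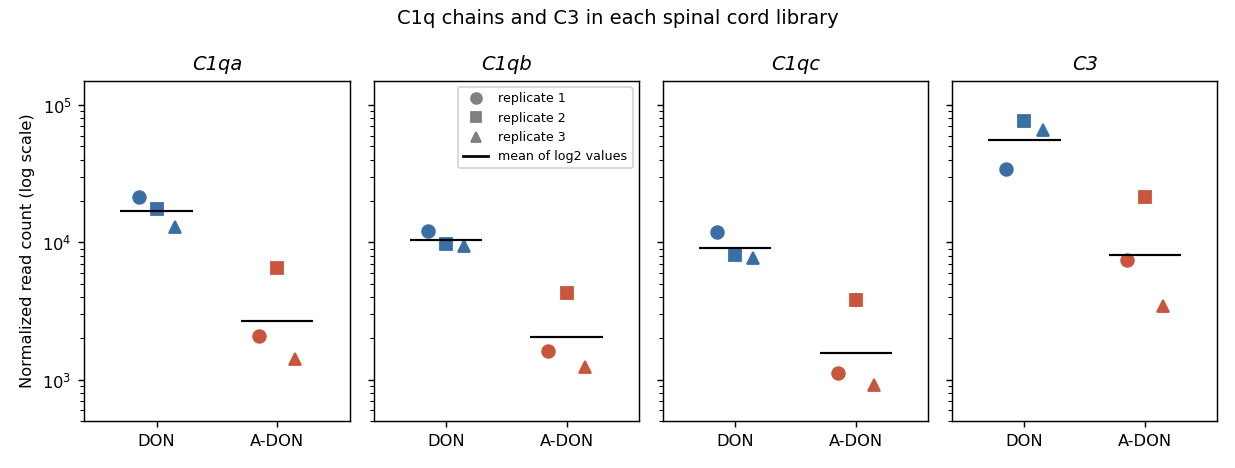
Normalized read count (vertical axis, log scale) of C1qa, C1qb, C1qc and C3 in each library of the DON and A-DON groups. Each symbol is 1 rat, its shape gives the replicate number, and the line marks the mean of the log2 values. In every panel the 3 A-DON rats lie below the 3 DON rats, and A-DON replicate 2 lies above the other A-DON rats. C3 in DON replicate 1 is the lowest DON value, while the C1q chains are highest there.

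The difference was thus past the threshold and in the same direction in all 4 genes, and none was higher. Of all tested genes 35.5% passed the threshold in either direction and 16.6% were lower in A-DON. The median log2 fold change was -2.59 over the 4 genes and -0.02 over all tested genes. The 3 A-DON libraries lay below the 3 DON libraries in all 4 genes and in 27.9% of all tested genes. All 4 were at least 4-fold lower in the fit, as were 8.10% of tested genes. Among the 1241 tested genes whose mean log2 level was at or above that of C1qc, the lowest of the 4, 24.9% passed the threshold in this direction, 33.6% had groups that did not overlap in this direction, and 5.72% were at least 4-fold lower. The share of tested genes with a still lower fold change was 3.31% for C1qa, 5.33% for C1qb, 3.94% for C1qc and 2.82% for C3. Over the other settings run, library omissions included, these shares ranged from 2.18% to 5.56%, 3.66% to 7.65%, 3.05% to 6.30% and 1.5% to 5.06%. The upper ends came with a pseudocount of 0.1 and the lower ends without A-DON replicate 1. In scaling to equal library totals the 4 genes kept their direction and their calls, while the share of higher genes among all genes past the threshold moved from 53.4% to 64.3%.

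**Figure D2:**
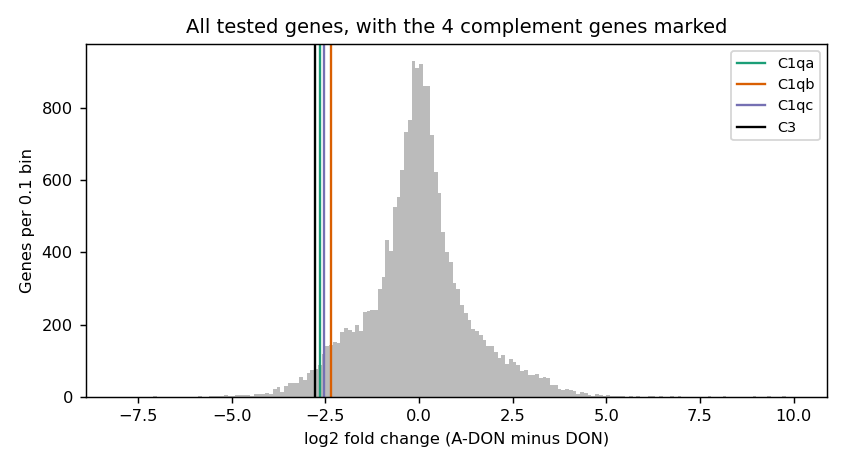
Number of tested genes (vertical axis) by log2 fold change, A-DON minus DON (horizontal axis, bins of 0.1). Vertical lines mark C1qa, C1qb, C1qc and C3, which lie between -2.77 and -2.34 in the lower tail of the 19515 genes.

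A-DON replicate 2 stood between the groups for each of the 4 genes. This was not particular to them. The chi-square per degree of freedom between libraries was taken over genes with at least a minimum number of reads in the 2 libraries compared. Its size grows with the number of reads, and A-DON replicate 2 had the fewest (24961512). The chi-square was 148.1 and 172.4 from A-DON replicate 2 to A-DON replicates 3 and 1. From A-DON replicate 2 to DON replicates 1, 2 and 3 it was 270.8, 157.8 and 190. It was 21.9 between A-DON replicates 1 and 3. From A-DON replicates 1 and 3 to the DON libraries it was 447.4 to 713.3. DON replicate 1 also lay apart from its own group, at 167.6 and 171.6 to DON replicates 2 and 3, against 53.59 between those 2. The normalized count of A-DON replicate 2 was 3.15-fold that of A-DON replicate 1 for C1qa, 2.62-fold for C1qb, 3.42-fold for C1qc and 2.90-fold for C3. On a linear scale from the DON mean (0) to the mean of A-DON replicates 1 and 3 (1), it lay at 0.69 for C1qa, 0.69 for C1qb, 0.66 for C1qc and 0.70 for C3. On the log2 scale of the fits it was closer to the DON mean than to A-DON replicate 1 or 3 in each gene. For C1qa, C1qb, C1qc and C3 the DON means were 14.04, 13.34, 13.15 and 15.77 in log2. A-DON replicate 1 had 11.02, 10.67, 10.12 and 12.85. A-DON replicate 2 had 12.67, 12.06, 11.89 and 14.39. Against A-DON replicate 3 its count was 4.59-fold higher for C1qa, 3.44-fold for C1qb, 4.14-fold for C1qc and 6.28-fold for C3, since A-DON replicates 1 and 3 themselves differed 2.17-fold in C3 and 1.21-fold to 1.45-fold in the C1q chains. The counts of A-DON replicate 2 were still 2.64-fold (C1qa), 2.45-fold (C1qb), 2.44-fold (C1qc) and 2.75-fold (C3) below the DON means.

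Leaving out A-DON replicate 2 widened the differences. It was the highest A-DON library in all 4 genes, so the widening followed from which library was left out. The smaller p-values of that fit come in part from the same choice. The log2 fold changes became -3.30 for C1qa, -2.87 for C1qb, -3.17 for C1qc and -3.47 for C3, and all 4 passed, with limma adjusted p of 0.000774 to 0.00413, where 24.9% of tested genes passed as lower. Without DON replicate 1, C1qb alone passed (limma adjusted p = 0.0496), with 6.65% of tested genes lower and past the threshold. C1qa, C1qc and C3 then had limma adjusted p of 0.0589, 0.0607 and 0.0503. Without DON replicate 2, C1qb again passed (limma adjusted p = 0.0434; 5.66% of tested genes), against 0.0534 for C1qa, 0.0508 for C1qc and 0.0752 for C3. None of the 4 passed in limma without DON replicate 3, A-DON replicate 1 or A-DON replicate 3, where 1.13%, 0.0154% and 0.00512% of tested genes passed as lower. In each of these 3 fits all 4 genes kept an unadjusted limma p under 0.05, the highest being 0.0265. That was common: 7764, 6838 and 6851 of the 19515 tested genes had such a p in the 3 fits, in the same order. The log2 fold changes of the 4 genes stayed between -2.84 and -1.98.

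**Figure D3:**
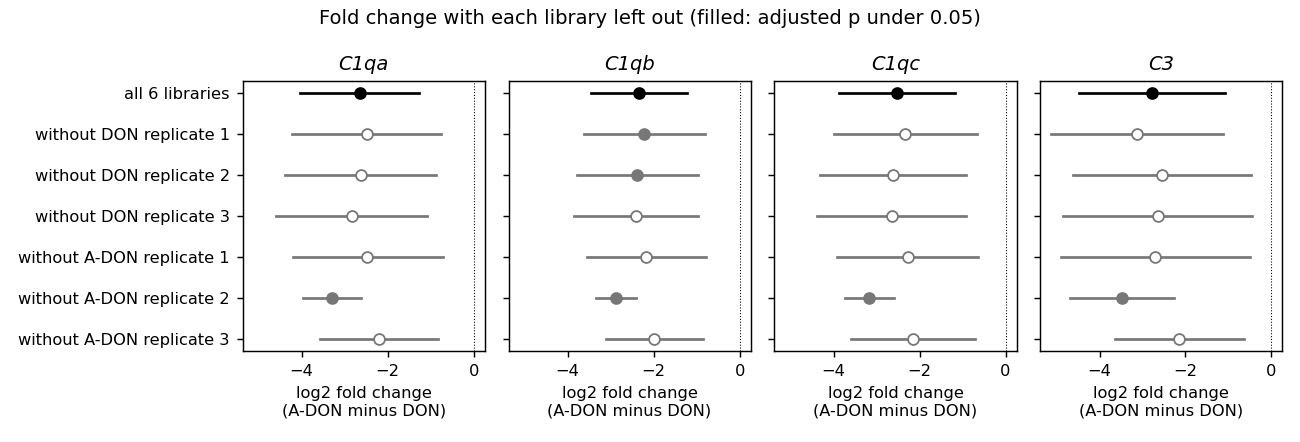
Log2 fold change, A-DON minus DON (horizontal axis), of C1qa, C1qb, C1qc and C3 with all 6 libraries and with each library left out (rows). Points are estimates, bars are 95% intervals from limma, and filled points have an adjusted p under 0.05. Every estimate lies below 0, and the intervals are narrowest without A-DON replicate 2.

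Within the groups C3 and the C1q chains did not always order the rats alike. In A-DON all 4 genes were highest in replicate 2, lower in replicate 1 and lowest in replicate 3. In DON, replicate 1 had the highest value of every C1q chain and the lowest value of C3, which was 2.22-fold lower there than in replicate 2. C3 minus the mean of the 3 C1q chains, on the log2 scale within a library, was 1.24, 2.78 and 2.75 in DON replicates 1, 2 and 3. It was 2.25, 2.18 and 1.54 in A-DON replicates 1, 2 and 3. DON replicate 1 thus had the lowest value and the other DON rats the highest, with all A-DON rats between them. The group mean was 2.25 ± 0.88 for DON and 1.99 ± 0.39 for A-DON (SD, n = 3 each). They differed by -0.26, which was within the spread between rats (exact two-sided permutation p = 0.6; the smallest that 3 rats against 3 allow is 0.1). Without DON replicate 1 this difference was -0.77 (exact permutation p = 0.2, the smallest that 2 rats against 3 allow). Both remaining DON rats then lay above all A-DON rats, so this p cannot decide whether the groups differed. It was -0.00 without DON replicate 2, -0.02 without DON replicate 3 and -0.04 without A-DON replicate 3 (exact permutation p = 1 each). Without A-DON replicates 1 and 2 in turn it was -0.40 and -0.36 (exact permutation p = 0.6 each). Its size thus changed with whichever rat was left out. The test does not show that C3 and C1q changed by equal amounts.

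The balance between the C1q chains, whose proteins are joined in fixed proportion, moved less than their levels. C1qa minus C1qb on the log2 scale was 0.81, 0.83 and 0.48 in DON replicates 1, 2 and 3, and 0.35, 0.62 and 0.20 in the A-DON replicates. The ranges overlapped through A-DON replicate 2 and DON replicate 3, and the group means were 0.71 ± 0.19 and 0.39 ± 0.21 (SD, n = 3 each). C1qa minus C1qc was 0.89 ± 0.18 in DON and 0.77 ± 0.13 in A-DON (SD, n = 3 each), with overlapping values. C1qb minus C1qc was 0.03, 0.26 and 0.27 in the DON replicates and 0.55, 0.16 and 0.43 in the A-DON replicates, also overlapping. The largest shift between group means was 0.32, for C1qa minus C1qb, while the log2 fold changes of the chains themselves were -2.34 or lower. These differences describe how read counts of genes of unlike length shifted, and are not ratios of transcripts. No test was made of them.

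**Figure D4:**
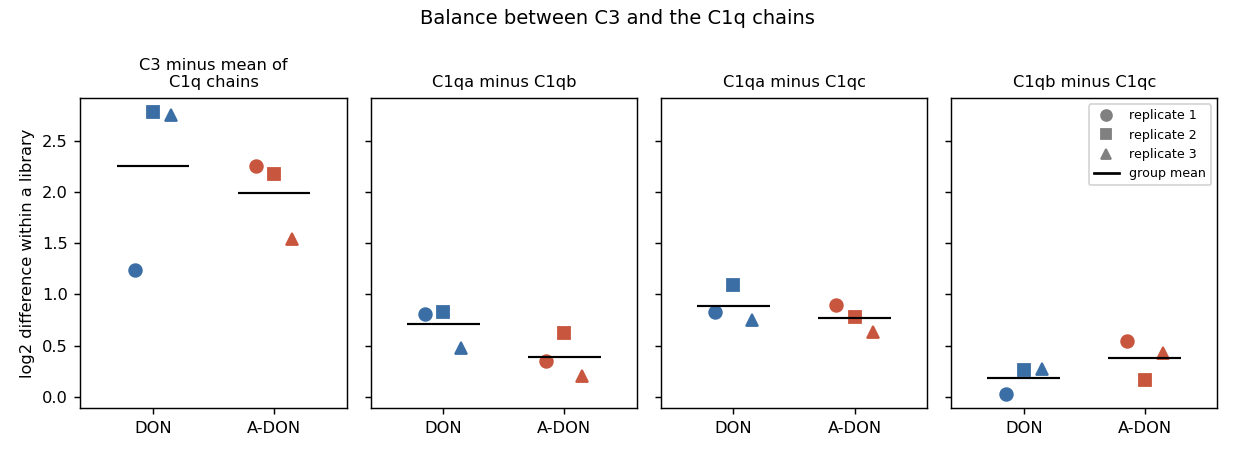
Log2 differences within a library (vertical axis) between C3 and the mean of the C1q chains and between pairs of C1q chains, by group. Each symbol is 1 rat, its shape gives the replicate number, and lines are group means. The groups overlap in every panel, and DON replicate 1 has the lowest value of C3 minus the C1q chains, 1.24.

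The genes most like each pattern over the 6 libraries were sought among tested genes of at least the median level and a log2 SD of at least 0.5 times that of the pattern. Pearson's r here describes likeness only: the libraries form 2 groups, and any gene that falls in A-DON shares much of the pattern. Over the 6 libraries r between C3 and the mean of the C1q chains was 0.939. Each C1q chain had an r of 0.999 with the mean of the chains. That mean includes the chain itself, so part of this likeness is built in and the 2 values are not like measures. The gene most like C3 was ENSRNOG00000049054 (r = 0.997), with 1326, 3214 and 2942 normalized counts in DON replicates 1, 2 and 3 and 305.2, 969.9 and 180.9 in the A-DON replicates. Like C3, it was lowest in replicate 1 among DON rats. The gene most like the C1q chains was ENSRNOG00000036604 (r = 0.999), with 1206, 1011 and 903.2 normalized counts in the DON replicates and 168.5, 485.5 and 131.5 in the A-DON replicates. It was highest in replicate 1 among DON rats, as the C1q chains were. Both genes were picked by r over these same 6 libraries, so their order among DON rats follows in part from the choice. An r of at least 0.99 was reached by 6 of 1739 candidate genes for C3 (0.345%) and by 92 of 2101 for the C1q chains (4.38%). The files used here pair no name with either ID.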

How the data were processed

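Stranded mRNA libraries were read on an Illumina NovaSeq machine, according to the labels. FastQC 0.11.2, STAR 2.5.3a, StringTie 1.3.1c and build rn6 appear in the submitters' processing notes. The counter, its strand setting and the gene annotation are not given in the sources consulted. The deposited log2 values are, from the values themselves, log2(read count / size factor + 1): undoing the log gave whole reads for 100% of values within a tolerance of 0.05 reads, with size factors of 0.927 to 1.05. The libraries with the most similar counts still differed by more than sampling noise (chi-square per degree of freedom of 21.9). The Wilson intervals of read shares cover counting error only, while the limma intervals of fold changes include the spread between rats. No molecular identifiers are mentioned.

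The groups were compared with limma (version 3.58.1 in R 4.3.3, with statmod 1.5.0), using trend and robust moderation and no covariate. The test took the log2 values as deposited, for the 19515 genes that had 1 or more normalized counts in 3 or more libraries. Benjamini-Hochberg adjustment ran over all of them, and adjusted p-values under 0.05 passed. The fit was tested on simulated data. Those counts had the same spread setting for every gene and no library set apart within its group, so they do not give error rates for these rats. On the recovered reads, voom called 7457 genes. Rats are separate animals in the series' design, and the shared numbers were not used to pair them.

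The members, lists and tests were chosen with earlier results of these data known. The rule for named genes took the 4 members, matched genes of the complement lists (none, since 0 of 22526 IDs were found in the RefSeq gene table), and the genes most alike in pattern, limited to 2 unnamed IDs that fell. Alternatives were quantile normalization, equal totals, no filter, a mean of at least 5, no trend or robust moderation, a pseudocount of 0.1, voom, the replicate block, the summed C1q chains and leaving out each library. The subset of genes at or above the lowest member and the motif TTGCNNAA were added after seeing the data. Motifs and intervals used Python 3.11.15, pandas 2.3.3 and scipy 1.17.1.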

Additional observations from a re-analysis of the deposited data

How the results depend on the processing

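Under the 7 settings other than the replicate block and leaving out a library, all 4 genes kept their direction and their calls: log2 fold changes were -2.66 to -2.56 for C1qa, -2.34 to -2.25 for C1qb, -2.54 to -2.44 for C1qc and -2.77 to -2.60 for C3, with limma adjusted p of 0.0153 to 0.0419. With the replicate number as a block, which leaves fewer residual degrees of freedom, the log2 fold changes were -2.65, -2.34, -2.53 and -2.77 for C1qa, C1qb, C1qc and C3, with limma adjusted p of 0.0658, 0.0666, 0.0690 and 0.0681. In that fit 0 genes passed in all and 0 as lower, although 7601 had an unadjusted limma p under 0.05, all 4 members among them. The deviations of same-numbered rats from their group means had r of -0.17, -0.24 and -0.08, against -0.06 to 0.22 for rats of different number. These values gave no sign of pairing by number. They cannot exclude it, since deviations from a mean of 3 rats depend on one another. Pairing by number left the group difference in C3 minus the C1q chains at -0.26 (exact sign-flip permutation p = 0.75). With 3 pairs this test cannot give a p under 0.05, so it cannot decide whether the groups differed.

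Leaving out 1 library gave log2 fold changes of -3.30 to -2.20 for C1qa, -2.87 to -1.98 for C1qb, -3.17 to -2.15 for C1qc and -3.47 to -2.15 for C3, with fewer rats in each fit. The call held in 1 of 6 such fits for C1qa, C1qc and C3 and in 3 of 6 for C1qb. The count of genes past the threshold, 6930 with all libraries, ranged from 12 to 9286, and that of lower genes, 3232 with all libraries, from 1 to 4855. Under the other 7 settings these counts were 5879 to 7457 and 2422 to 3608. The chain balances moved by less than the spread between rats in the 7 settings run for each. The complement lists gave no value under any setting. The smallest member count was 929 reads, so counting error is small beside the spread between rats.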
